A study of Mus musculus with 24 samples.

Results

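Transcript levels of 8 genes that repair or respond to methylated DNA bases were measured in the mouse colon after azoxymethane (AOM), a carcinogen that methylates DNA. The genes were Mgmt, Mpg, Xrcc1, Parp1, Msh6, Msh3, Pms2 and Trp53, chosen by name. They were found on the array through the accession of each probe, and 13 of the 56605 probes matched them, so that 8 of 45616 gene names on the array are described here. Mgmt, Xrcc1, Parp1, Msh6 and Trp53 had 1 probe each, Mpg and Pms2 had 2, and Msh3 had 4. None of the 8 genes passed the threshold of the study for a difference between high-fat and low-fat feeding in males, females or ovariectomized females, which 4.3%, 1.2% and 2.19% of all genes tested passed. With the brightest probe of each gene, Mgmt in females came closest, at 1.27-fold higher on the high-fat diet. A dimmer Msh3 probe was 1.47-fold higher in females and also did not pass.

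The colon tissue came from C57BL/6J mice purchased at 7 weeks of age, with 1 mouse per array. According to the methods, tissue for the arrays was from the distal colon. Males (M) and females (F) had sham surgery and F(OVX) mice were ovariectomized. All 6 groups of 4 mice received AOM at 10 mg/kg, followed by 1.5% dextran sulfate sodium (DSS) in the drinking water in 3 cycles to inflame the bowel, and no mice without AOM and DSS were analyzed here. M + LFD, F + LFD and F(OVX) + LFD ate a diet with 10 kcal% fat, and M + HFD, F + HFD and F(OVX) + HFD a diet with 45 kcal% fat, for 14 weeks, and the colon was taken 75 days after AOM. The methods name 5 animals per group for the arrays and the labels give 4.

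AOM is converted in the liver and colon to a compound that adds methyl groups to DNA bases. MGMT takes the methyl group off guanine directly and is used up in doing so, whereas MPG (also called AAG) cuts out methylated adenine and guanine and starts base excision repair, in which PARP1 senses the nicked strand and XRCC1 holds the repair proteins together. A methylated guanine that is not repaired pairs with thymine at replication, and the mismatch repair proteins then detect the wrong pair, cut the new strand and signal through p53, the tumor suppressor that halts or kills damaged cells.

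Values are log2 signals after quantile normalization over the 24 arrays, and a difference between groups is a log2 difference. As in the methods of the study, a gene was called where the groups differed at least 1.5-fold at an unadjusted p under 0.05, here by limma. The brightest probe stood for its gene and was well above background on all 24 arrays for each of the 8 genes. All 9 epithelial markers were well above background on all 24 arrays, and Hoxb13, a gene of the distal colon, read 12.58 to 14.79 on 22 arrays but 2.18 and 5.04 on M + LFD replicates 1 and 2. Sex or surgery followed the slide and diet followed the row on the slide, so neither can be told apart from its place on the slides.

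Mgmt, the direct reversal enzyme, was measured by 1 probe. In F + LFD it read 8.47, 8.57, 8.76 and 8.60, and in F + HFD 9.10, 8.93, 8.82 and 8.93. The groups did not overlap, with every HFD female above every LFD female. The mean was 8.60 ± 0.12 (SD, n = 4) in F + LFD and 8.94 ± 0.12 (SD, n = 4) in F + HFD. The difference was 0.34 (SE 0.12, 95% interval 0.06 to 0.62, limma adjusted p = 0.991), which is 1.27-fold and under the 1.5-fold threshold. Exact permutation of the diets over the 8 arrays gave p = 0.0286 (two-sided), the smallest that 4 against 4 allows. Among all 22085 genes tested in females, 1.9% did not overlap between the diets and 2.91% had an unadjusted limma p under 0.05, against which the 1 gene of 8 is to be read. With the replicate number as a block, which treats same-numbered arrays as pairs, the 95% interval was 0.00 to 0.68. Its lower end was just above 0 (limma adjusted p = 0.666).

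The other slides gave no such separation. In M + LFD the Mgmt signal was 8.58, 8.81, 8.53 and 8.86, and in M + HFD it was 9.14, 9.10, 8.43 and 8.90, so that 1 HFD male lay below every LFD male and the other 3 above. In F(OVX) + LFD it was 8.30, 9.31, 8.84 and 9.05 and in F(OVX) + HFD 8.66, 8.76, 8.50 and 8.94, with the HFD values inside the range of the LFD values. The HFD minus LFD difference was 0.19 (SE 0.19) in males and -0.16 (SE 0.22) in OVX females. The diet difference in OVX females minus that in females was -0.50 (SE 0.26, 95% interval -1.04 to 0.03, limma adjusted p = 0.9998) and did not pass the threshold. When the lowest array of F(OVX) + LFD, replicate 1, was left out, this became -0.69 (SE 0.22, limma adjusted p = 0.9998) and passed it, so a call turns on that array.

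**Figure D1:**
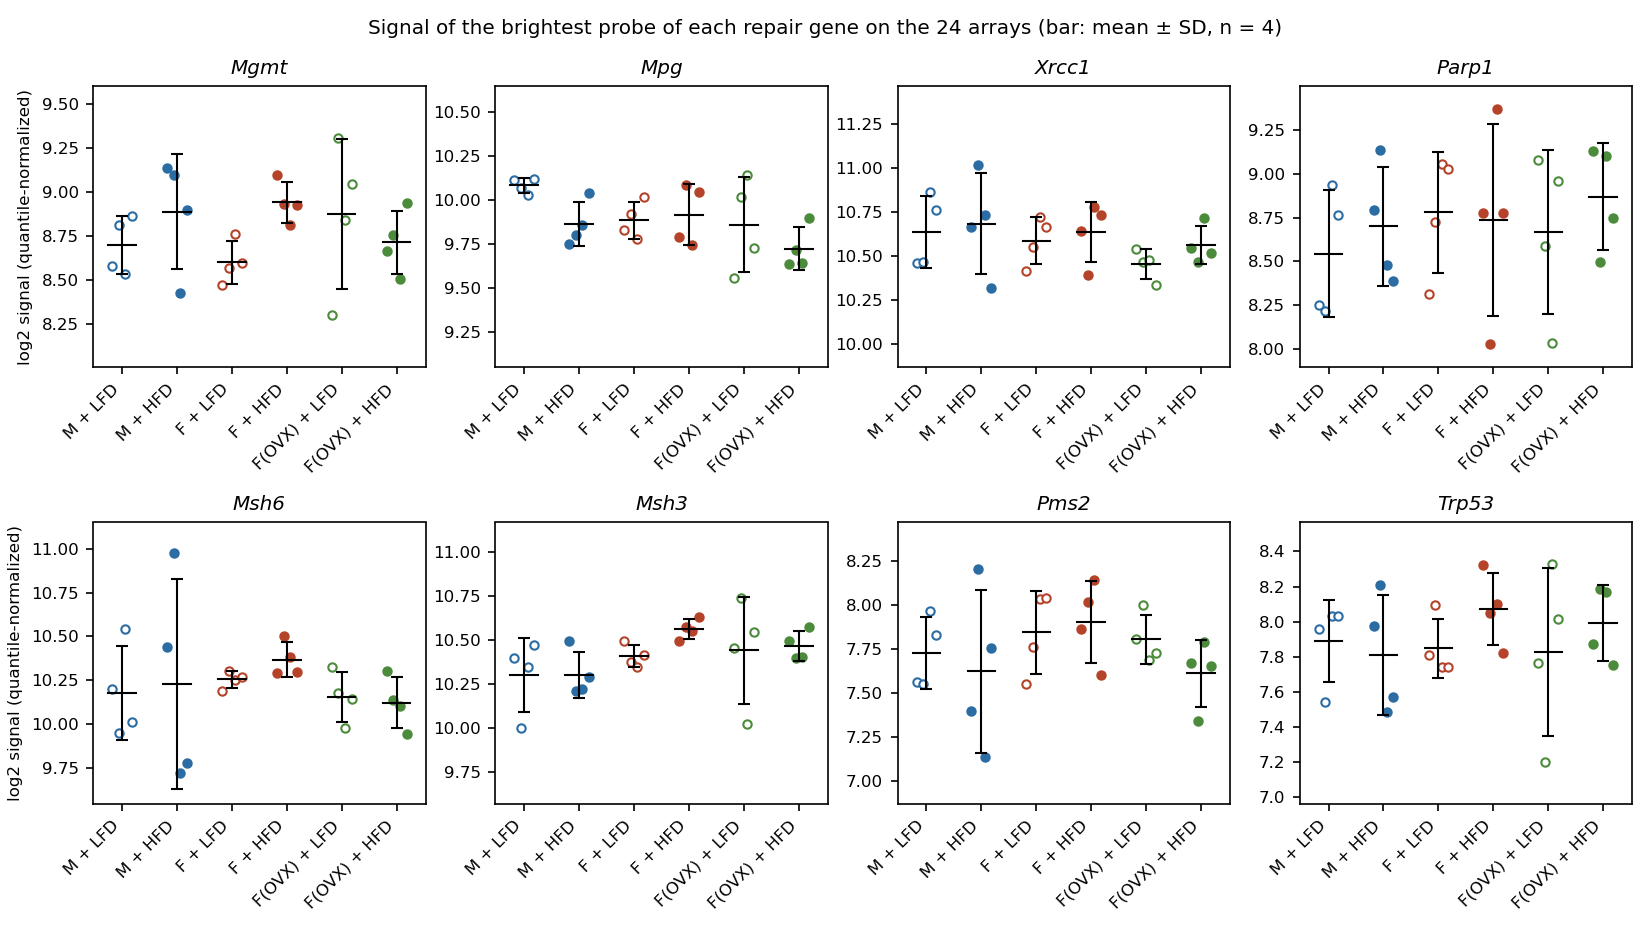
Log2 signal (vertical axes, each spanning 1.6 log2 units) of the brightest probe of the 8 genes in the 6 groups, with 1 point per array, LFD open and HFD filled, and bars for the mean ± SD of 4 arrays. The F + HFD points of Mgmt all lie above the F + LFD points, and in every other panel the diets overlap within each sex or surgery.

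Mpg, the glycosylase that removes methylated bases, was the steadiest of the 8 genes, with a range of 0.59 log2 units over the 24 arrays on its brightest probe. In M + LFD it read 10.12, 10.07, 10.03 and 10.12 and in M + HFD 9.75, 9.80, 9.86 and 10.04. Of the HFD males 3 lay below every LFD male, and the fourth lay inside the LFD range. The difference was -0.22 (SE 0.12, exact permutation p = 0.0571, limma adjusted p = 0.83). The difference was 0.03 (SE 0.13) in females and -0.14 (SE 0.17) in OVX females, both within the spread between mice.

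The second Mpg probe, A_55_P2109983, was dimmer and gave another order. In F + LFD it read 7.80, 7.78, 7.69 and 8.50 and in F + HFD 7.22, 7.71, 7.62 and 7.66, and the difference was -0.39 (SE 0.21, exact permutation p = 0.0571) against 0.03 on the brightest probe. The difference was 0.04 in HFD males and -0.01 in HFD OVX females, so the lower Mpg mean of HFD males on the brightest probe was not seen on the dimmer one.

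Parp1, which senses nicks and makes chains of ADP-ribose, ranged most among the brightest probes, by 1.33 log2 units with all arrays kept. In F + HFD the 4 arrays read 8.78, 8.03, 9.37 and 8.78, so that arrays of the same diet differed more than the diet means did. The lowest values were 8.03 in F + HFD replicate 2 and 8.04 in F(OVX) + LFD replicate 3. These arrays had the fewest probes well above background, 43.6% and 40.5%. Means lay between 8.54 ± 0.36 (SD, n = 4) in M + LFD and 8.87 ± 0.30 (SD, n = 4) in F(OVX) + HFD. The diet difference was 0.16 (SE 0.23) in males, -0.04 (SE 0.29) in females and 0.20 (SE 0.25) after ovariectomy. The interval of the last reached 1.72-fold, the farthest of all 24 member differences. Without F + HFD replicate 2 the Parp1 difference in females was 0.19. Without F(OVX) + LFD replicate 3 that in OVX females was -0.01. Xrcc1, the scaffold, was tighter, with group means from 10.45 ± 0.08 (SD, n = 4) in F(OVX) + LFD to 10.68 ± 0.29 (SD, n = 4) in M + HFD and diet differences of 0.05, 0.05 and 0.11.

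Although diet did not separate them, Xrcc1 and Parp1 varied together from mouse to mouse. With each array taken as its deviation from its group mean, the 2 genes correlated over the 24 arrays at Pearson's r = 0.72 (permutation p = 0.00033, adjusted 0.00924) and Spearman's rho = 0.72 (permutation p = 0.00074, adjusted 0.0207). It was the only 1 of 28 pairs of members under 0.05 after adjustment over the pairs, and 5 pairs were under 0.05 before it. Without the 2 arrays farthest from the median r was 0.72. Within the slides of 8 arrays r was 0.89 for males, 0.95 for females and 0.26 for OVX females, and whether the slides differ was not tested. The permutations did not use the possible pairing of same-numbered female arrays. Among 16829 genes well above background on all arrays, 0.85% followed Xrcc1 as closely as Parp1 did and 1.06% followed Parp1 as closely as Xrcc1 did.

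**Figure D2:**
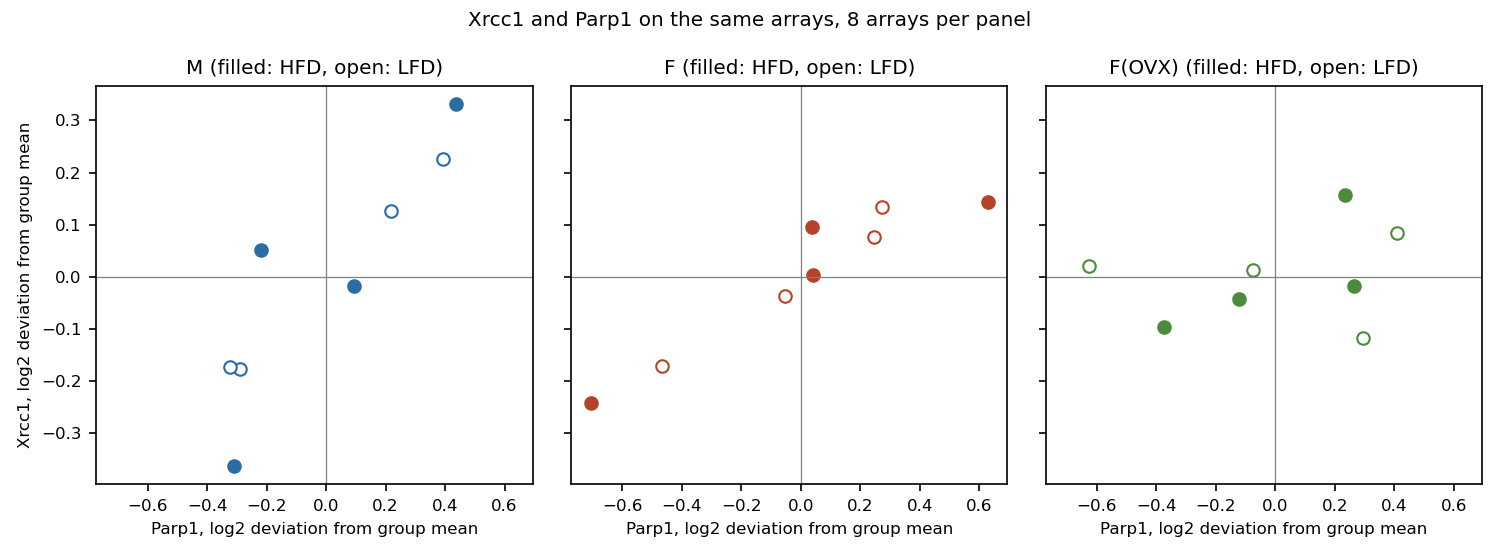
Deviation of Xrcc1 (vertical axis) from its group mean against that of Parp1 (horizontal axis), both in log2 units, with 1 point per array and 8 arrays in each of males, females and OVX females. Points of males (r = 0.89) and females (r = 0.95) follow a rising line, and those of OVX females (r = 0.26) scatter.

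Marker levels of other cell types are given beside this correlation. The mean of the 6 B and plasma cell markers (5 of them well above background on all arrays) spanned 6.70 to 10.70 over the M + LFD arrays, 7.00 to 10.45 in M + HFD, 8.76 to 11.86 in F + LFD, 8.92 to 11.29 in F + HFD, 9.94 to 11.10 in F(OVX) + LFD and 8.16 to 11.45 in F(OVX) + HFD. It correlated with Xrcc1 at r = 0.72 (permutation p = 0.00101, rho = 0.65, adjusted p = 0.0624) and with Parp1 at r = 0.60 (permutation p = 0.00271, rho = 0.59, adjusted p = 0.0624). Among OVX females these were 0.17 and 0.20. The 19 markers of proliferating cells, all well above background on all arrays, followed Xrcc1 at r = 0.69 (permutation p = 0.00245, rho = 0.75, adjusted p = 0.0624) and Parp1 at 0.42. Among OVX females these were 0.77 and 0.25. The 6 myeloid markers followed Parp1 at r = 0.64 (permutation p = 0.00312, rho = 0.67, adjusted p = 0.0624) and Xrcc1 at 0.48, and among OVX females at 0.42 and -0.01. Fibroblast markers followed Parp1 at r = 0.56. Xrcc1 ran against the markers of epithelium (r = -0.48) and of enteric neurons and glia (r = -0.51). Of the 80 relations of the members with marker lists and with the share of probes well above background, 9 were under 0.05 before adjustment and 0 after it. That share correlated with Xrcc1 at r = -0.27 and with Parp1 at r = 0.11. The part of these cells in the joint variation was not tested. In colon tissue of mixed cells, fewer cells of a type and less RNA per cell cannot be told apart.

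Because these genes varied together, the sequence before the annotated start of each is shown. RefSeq (GRCm38.p6) has windows for all 8 genes, and the 250 bases before the annotated start of Parp1 (chr1:180568641-180568890, plus strand) and of Xrcc1 (chr7:24546449-24546698, plus strand) read 5′ to 3′ as follows, with GC boxes (GGGCGG) and CCAAT boxes (CCAAT) on either strand in capitals.
Parp1: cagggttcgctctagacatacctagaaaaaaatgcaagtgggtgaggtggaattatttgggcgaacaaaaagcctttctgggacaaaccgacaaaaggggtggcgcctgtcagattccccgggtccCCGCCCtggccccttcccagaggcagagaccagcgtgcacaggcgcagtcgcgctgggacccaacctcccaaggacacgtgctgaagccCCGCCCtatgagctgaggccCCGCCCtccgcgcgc
Xrcc1: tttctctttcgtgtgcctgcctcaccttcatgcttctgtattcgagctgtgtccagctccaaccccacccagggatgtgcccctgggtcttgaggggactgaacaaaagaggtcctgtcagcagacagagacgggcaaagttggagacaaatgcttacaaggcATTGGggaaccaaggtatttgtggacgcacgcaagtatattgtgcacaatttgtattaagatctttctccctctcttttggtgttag
The Parp1 window held 3 GC boxes, which begin 124, 35 and 15 bases before the start, and 16 CpG dinucleotides. The Xrcc1 window held no GC box, 1 CCAAT box that begins 87 bases before the start, and 5 CpG dinucleotides, against a median of 6 over all 32851 windows. The Xrcc1 window ends in a pyrimidine-rich run and ag, letters also found before a splice site, so it may not be the promoter in use, and where transcription starts in the colon was not measured. A GC box was present in a window of 6 of the 8 genes and in 32.7% of all windows, and a CCAAT box in a window of 5 of the 8 genes and in 33.8%. The first counts are of genes with the motif in any window, and the shares are of single windows. Mgmt had a window with 4 GC boxes and another with 0. A pair of E2F motifs was also searched on both strands. TTTCCCGC was in no window of the 8 genes and in 0.895% of all windows, and TTTGGCGC was in that of Msh3 and in 0.417% of all windows.

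Mpg and Parp1 varied in opposite directions from mouse to mouse, at r = -0.64 (permutation p = 0.0058, rho = -0.66, adjusted p = 0.0812 over the 28 pairs), and r was negative within each slide, at -0.55 for males, -0.51 for females and -0.84 for OVX females. The pair did not pass after adjustment, and 3.15% of the 16829 genes had an r with Parp1 as low as that of Mpg.

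The mismatch recognition genes Msh6 and Msh3 were not called in any diet comparison with all arrays kept. MSH6 detects single wrong pairs, including methylated guanine opposite thymine, and MSH3 detects small loops. Msh6 read 10.44, 10.98, 9.72 and 9.78 in M + HFD, a wide spread, but 10.19, 10.30, 10.25 and 10.27 in F + LFD. Its diet difference was 0.05 (SE 0.29) in males, 0.11 (SE 0.11) in females and -0.03 (SE 0.14) after ovariectomy. The brightest Msh3 probe, A_55_P1974477, read 10.49, 10.38, 10.34 and 10.42 in F + LFD and 10.49, 10.57, 10.55 and 10.63 in F + HFD, with means of 10.41 ± 0.06 and 10.56 ± 0.06 (SD, n = 4). All but 1 HFD female lay above every LFD female, and the difference of 0.15 (SE 0.10, exact permutation p = 0.0571) did not pass. It was 0.00 (SE 0.15) in males and 0.03 (SE 0.17) in OVX females.

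The dimmer Msh3 probes spread more and gave other values. Probe A_55_P2600297 was well above background on all 24 arrays. It read 5.94, 6.18, 5.81 and 5.08 in F + LFD and 6.42, 6.47, 6.13 and 6.21 in F + HFD. The difference was 0.56 (SE 0.23, exact permutation p = 0.0571, limma unadjusted p = 0.0429, adjusted p = 0.988). This is 1.47-fold, just short of the 1.5-fold threshold. In M + LFD it read 6.06, 6.09, 6.31 and 6.32 and in M + HFD 6.21, 5.61, 6.14 and 4.77, a difference of -0.51 (SE 0.30, exact permutation p = 0.171). The size of each difference depended on its lowest array, and became 0.33 (SE 0.16) for females without F + LFD replicate 4 and -0.21 (SE 0.19) for males without M + HFD replicate 4. Leaving out F + LFD replicate 1 or 2 or F + HFD replicate 3 instead took the female difference past the threshold, at 0.62, 0.70 and 0.61.

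When the 28604 probes were fitted by themselves, the diet difference of A_55_P2600297 in males minus that in females was -1.07 (SE 0.38, limma adjusted p = 0.969), and in males minus that in OVX females -0.86 (SE 0.38, limma adjusted p = 0.657). Both passed the threshold of the study, as did 3.22% and 6.02% of all probes, and both stayed past it without the 2 arrays of low Hoxb13, at -1.18 and -0.98. When single arrays were omitted, an alternative chosen after seeing the data, the first stayed past the threshold for each of the 24, at -1.24 to -0.76, where -0.76 is the value without M + HFD replicate 4. Omitting M + HFD replicate 4 and F + LFD replicate 4 together, on which the male and female differences each depended, was not tested. The second difference was under the threshold when any 1 of 9 arrays was omitted, which were M + LFD replicates 3 and 4, M + HFD replicates 2 and 4, F(OVX) + LFD replicates 1 and 2, and F(OVX) + HFD replicates 2, 3 and 4. It was -0.55 (SE 0.31) without M + HFD replicate 4 and -0.83 to -0.74 without 1 of the other 8. The brightest probe gave -0.15 and -0.03 for the same differences.

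On HFD, A_55_P2600297 differed between males and females by -0.62 (SE 0.27, limma adjusted p = 0.294), males being lower, and passed the threshold, as did 8.09% of all probes. The difference was -0.32 (SE 0.23) without M + HFD replicate 4, and it was also under the threshold without M + HFD replicate 2 or F + HFD replicate 1 or 2, at -0.60, -0.59 and -0.57. A_51_P454166 was called there too, but it was well above background on 3 of the 4 M + HFD arrays, and its value is not given. A_51_P454166 was well above background on 21 arrays and the last probe, A_52_P368008, on 14, and no level is compared between probes.

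**Figure D3:**
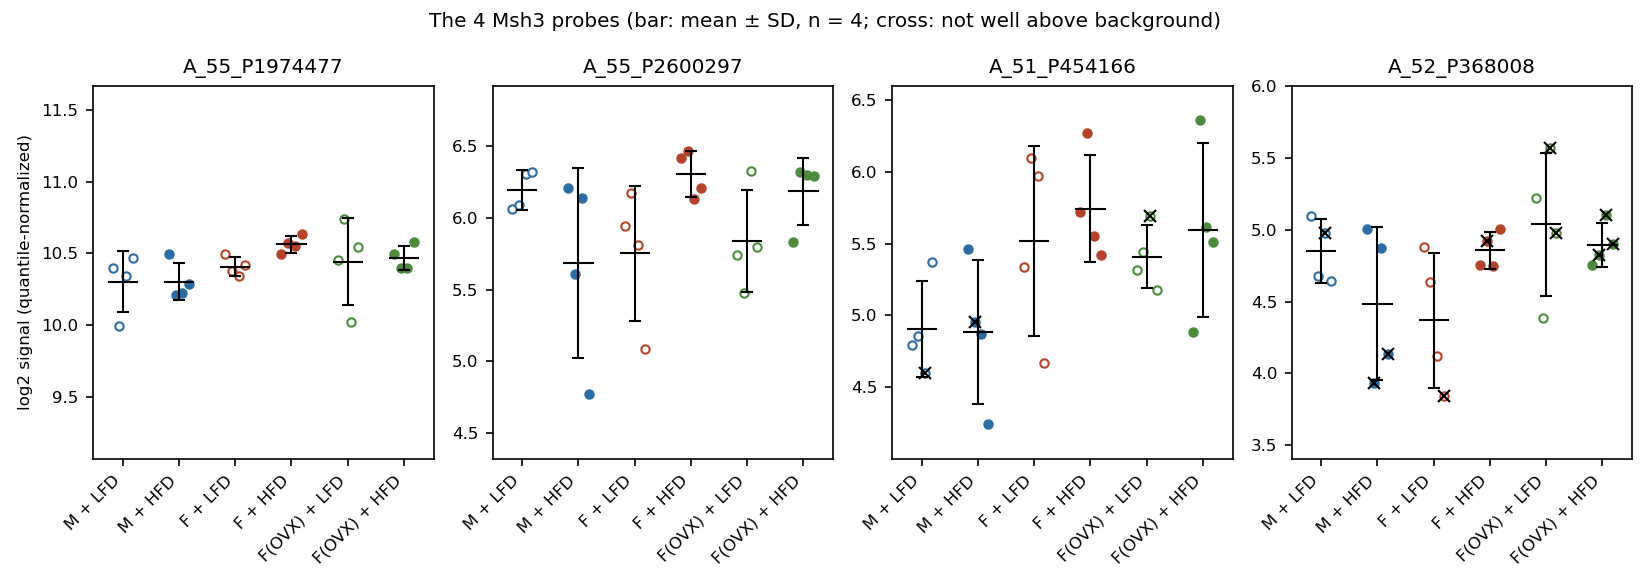
Log2 signal (vertical axes, each spanning 2.6 log2 units) of the 4 Msh3 probes in the 6 groups, with 1 point per array, LFD open and HFD filled, bars for the mean ± SD of 4 arrays and a cross on arrays where the probe was not well above background. The brightest probe, A_55_P1974477, varies least, and the lowest arrays of A_55_P2600297 are M + HFD replicate 4 (4.77) and F + LFD replicate 4 (5.08).

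Pms2 encodes the partner that cuts the strand after a mismatch is found. It read 7.56, 7.55, 7.97 and 7.83 in M + LFD and 7.40, 8.21, 7.14 and 7.76 in M + HFD, with the HFD males on both sides of the LFD males. Its diet difference was -0.10 (SE 0.24) in males, 0.06 (SE 0.17) in females and -0.19 (SE 0.15) after ovariectomy. The second Pms2 probe was well above background on 4 of the 24 arrays and was not tested. Trp53, the gene of p53, read 7.81, 8.10, 7.74 and 7.74 in F + LFD and 8.32, 8.05, 8.10 and 7.82 in F + HFD. The groups overlapped, and the difference was 0.23 (SE 0.15, exact permutation p = 0.114), beside -0.08 (SE 0.21) in males and 0.17 (SE 0.24) in OVX females.

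Across the 8 genes, 0 were called in each diet comparison, where 4.3% of 20516 genes were called for males, 1.2% of 22085 for females and 2.19% of 19211 for OVX females. At an unadjusted p under 0.05 limma found 0, 1 and 0 of the 8, where 6.1%, 2.91% and 3.69% of all genes were found. The groups did not overlap for 0, 1 and 0 of the 8, and for 2.6%, 1.9% and 2.3% of all genes. Probe by probe, none of the members' probes tested was called either, where 4.23%, 1.34% and 2.11% of all probes were. No gene of the whole array had an adjusted p under 0.05 in these comparisons. The median size of the difference was 0.09 for males, 0.09 for females and 0.15 for OVX females, against 0.16, 0.15 and 0.15 over all genes tested. The 95% interval lay within 1.5-fold in either direction for 15 of the 24 differences, namely 4 of 8 for males, 6 for females and 5 for OVX females, where 37.4%, 42.3% and 42% of all genes had such an interval. For the other 9 differences the interval reached past 1.5-fold in at least 1 direction.

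**Figure D4:**
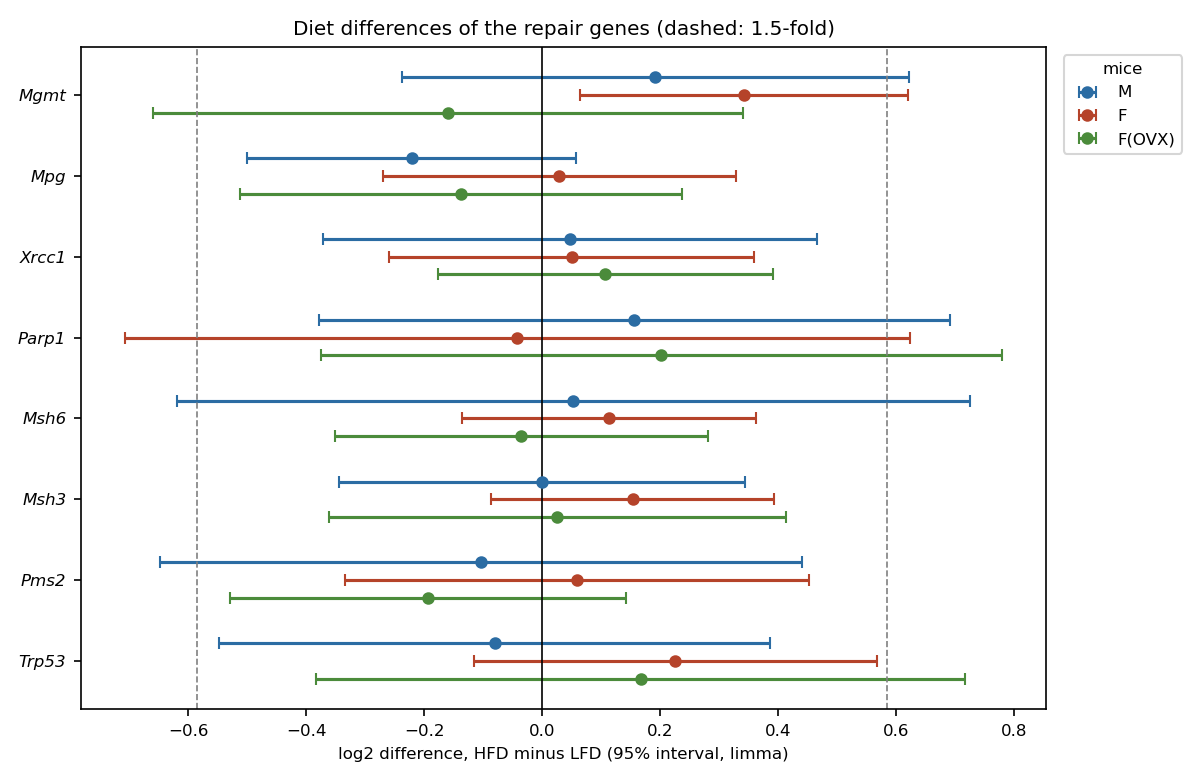
Log2 difference HFD minus LFD (horizontal axis) of the 8 genes with the 95% interval from limma, in males, females and OVX females, with dashed lines at a 1.5-fold difference. Every point lies inside the dashed lines, and the interval of Mgmt in females (0.06 to 0.62) is the only one that does not include 0.

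Differences between sexes and with ovariectomy were of the same size. On LFD the members in males minus females ran from -0.24 (Parp1) to 0.20 (Mpg), with 4 of 8 lower in males. On HFD they ran from -0.28 (Pms2) to 0.05 (Xrcc1), with 7 of 8 lower in males. Males and females did not overlap for Mpg on LFD, where males were higher by 0.20 (SE 0.13, exact permutation p = 0.0286), nor for Msh3 on HFD, where males were lower, at -0.26 (SE 0.13, exact permutation p = 0.0286, limma adjusted p = 0.395). These are 1 of 8 genes on each diet, where 5.87% of all genes on LFD and 7.9% on HFD did not overlap. In OVX females minus females the members ran from -0.13 (Xrcc1) to 0.27 (Mgmt) on LFD, with 6 of 8 lower in OVX females. On HFD they ran from -0.29 (Pms2) to 0.13 (Parp1), with 7 of 8 lower, as in males against the same F + HFD arrays. The groups overlapped for all 8, where 1.74% and 4.27% of all genes did not. None of the 8 was called in any of these, where 5.06%, 7.51%, 1.7% and 2.31% of 22383 genes were, and none had an unadjusted limma p under 0.05, as 9.61%, 13.7%, 3.27% and 4.8% of genes had. Nor was any called for the difference between diet effects of males and females, OVX females and females, or males and OVX females, where 2.95%, 1.52% and 6.16% of genes were. None had an unadjusted limma p under 0.05 there either, as 3.52%, 2.12% and 7.42% of genes had.

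Over the 6 groups at once, the highest and lowest group means of a gene were between 0.23 (Xrcc1) and 0.36 (Mpg) log2 units apart. F + HFD was highest for 5 of the 8 genes, Mgmt, Msh6, Msh3, Pms2 and Trp53, whereas M + LFD was highest for Mpg, M + HFD for Xrcc1 and F(OVX) + HFD for Parp1. Neighbours in these orders lay at most 0.17 apart, less than the SD within groups for each gene (0.18 for Mpg and up to 0.39 for Parp1). The smallest adjusted p of the limma F-test over the 6 groups was 0.593, for Mpg, where 0.925% of 22383 genes were under 0.05.

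Other genes of the pathway were read from 4 lists. Of 74 genes, 70 were tested for males, 71 for females and 69 for OVX females, and 1 was called, in females. Over all genes tested, 4.3%, 1.2% and 2.19% were called in these comparisons, against which the 1 call is to be read. The gene called was Btg2, a p53 target that slows cell growth. It was lower in F + HFD (10.59 ± 0.46) than in F + LFD (11.25 ± 0.19, SD, n = 4). The groups did not overlap (9.93 to 10.92 against 10.97 to 11.40), as for 1.9% of all genes tested in females. The difference was -0.66 (SE 0.23, limma adjusted p = 0.991, exact permutation p = 0.0286).

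The 22 genes of direct reversal and base excision repair had median differences of -0.03 for males, 0.02 for females and 0.07 for OVX females, and 0 of those tested were called. The 17 genes that work with the mismatch repair proteins, among them the sliding clamp and its loader, the DNA polymerase and the single-strand binding proteins, had medians of -0.19, 0.07 and 0.06, with 12 of 17 lower in HFD males and 0 called. The checkpoint genes (9, 9 and 8 tested of 10) had medians of -0.14, 0.22 and 0.00 with 0 called. The p53 targets (23 tested of 25) had medians of 0.14, -0.15 and -0.10, with 16 of 23 higher in HFD males and 16 of 23 lower in HFD females. Over all genes the medians were 0.01, 0.00 and 0.01.

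Marker lists of other cells are given beside these genes. The HFD mean of each of the 19 markers of proliferating cells was below the LFD mean in males (median difference -0.76, 0 called), while the medians were -0.18 for females and 0.27 for OVX females. Their mean over the list ran from 9.18 to 11.14 in M + LFD, from 8.80 to 10.42 in M + HFD, from 10.08 to 10.79 in F + LFD, from 10.14 to 11.08 in F + HFD, from 9.39 to 10.52 in F(OVX) + LFD and from 9.57 to 11.08 in F(OVX) + HFD. Clamp, loader and polymerase genes are also made for replication, and the part of cell division in the mismatch repair list was not tested. Over all genes tested, 4.3% were called for males, 1.2% for females and 2.19% for OVX females, against which the marker calls are to be read. No marker had a limma adjusted p under 0.05. In OVX females 4 of 6 smooth muscle markers were called higher on HFD, with a median of 0.84 over the list. The diets overlapped for Tagln, Cnn1 and Des but not for Actg2. Of the 6 B and plasma cell markers 1, Jchain, was called lower at -0.72 with overlapping diets, and all 6 were below 0 (median -0.56). In males Cd3g was called lower among the 7 T cell markers at -0.64, with all 7 below 0 (median -0.55). The mean of the list was 8.58 and 8.94 on the M + LFD arrays of low Hoxb13. It was 8.34 and 8.36 on the other M + LFD arrays and 7.81 to 8.23 in M + HFD. The list was not tested without the arrays of low Hoxb13. Among the 2 of 4 adipocyte markers tested Cidec was called lower in males, at -3.06 (SE 1.14, exact permutation p = 0.0571). It read 3.68 to 9.08 on HFD and 7.91 to 11.06 on LFD. Of the 4 markers 1 was well above background on all arrays. The diets overlapped for both genes. In females S100b was called higher among the 6 markers of enteric neurons and glia, with overlapping diets and all 6 above 0 (median 0.57). Beside these the members gave no call, and the part of these cells in the member values was not tested.

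**Figure D5:**
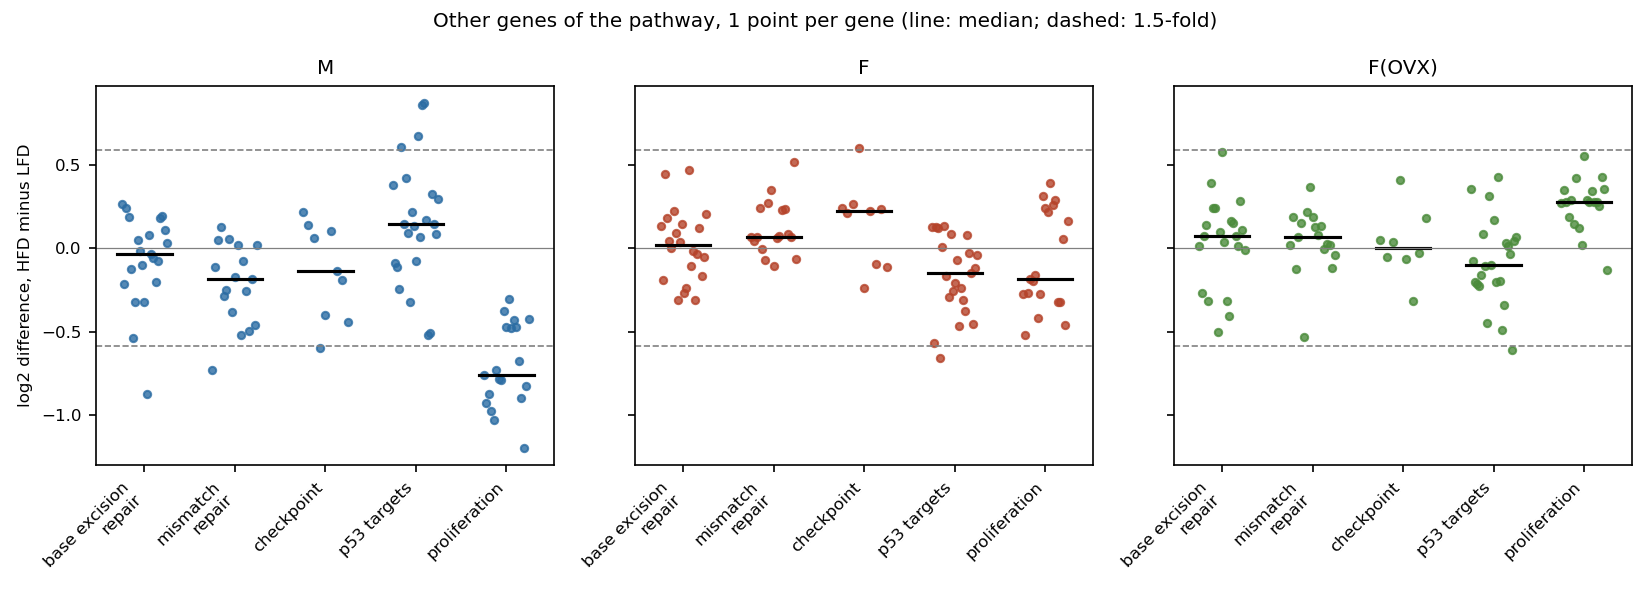
Log2 difference HFD minus LFD (vertical axis) of the genes of 4 pathway lists and of the proliferation markers in males, females and OVX females, with 1 point per gene tested, a line at the median and dashed lines at 1.5-fold. All 19 proliferation points lie below 0 in males (median -0.76), and the medians of the 2 repair lists lie between -0.19 and 0.07, with single genes from -0.87 to 0.58.

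The genes most like each member were those with the smallest mean absolute difference of centred log2 values over the 24 arrays, among 16829 genes well above background throughout. Sart3 was nearest to Xrcc1, at 0.084 log2 units, followed by Cstf1 (0.0903). Klhl12 was nearest to Msh3 (0.0894), Ppp2r2d to Mpg (0.101), Zcchc17 to Trp53 (0.12), Mrpl23 to Mgmt (0.124), Adpgk to Msh6 (0.129), Cybc1 to Pms2 (0.132) and Ddx39b to Parp1 (0.144). No member was among the 3 genes nearest to another. For comparison, the median gene lay 0.318 from Mgmt and 0.282 from Mpg.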

How the data were processed

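Total RNA of colon tissue from 24 mice was labelled with Cy3 and hybridized by the authors to Agilent mouse arrays in 1 color. Per the labels, the spots were extracted with Agilent Feature Extraction 11.0.1.1. The deposited processed values are background-subtracted spot intensities on a linear scale, not normalized between arrays, and the deposited flags (other values, 0 or 1) mark spots well above background, saturated or outlying. The share of probes well above background ran from 40.5% to 61.9% over the arrays and 0 spots were saturated, and precision is limited by the number of arrays.

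Control spots were left out, log2 intensities of the 24 arrays were quantile-normalized, and spots of a probe were averaged. Accessions were matched without version to a RefSeq gene table (GRCm38.p6), which named 32994 probes (58.3%). A gene was its brightest probe, tested if well above background on all 4 arrays of a group compared. Each diet comparison was fitted on its 8 arrays with limma 3.58.1 in R 4.3.3, with Benjamini-Hochberg adjustment over all genes, and other contrasts in 1 fit of 24 arrays. Single genes were also compared by exact permutation (70 assignments). Correlations used 100000 permutations within groups. Alternatives are scaling to the 75th percentile, normexp with an offset of 50, other filters and probe rules, the methods' t-test, a block, and leaving out arrays. The fit was tested on simulated data.

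The members, the gene lists and the tests were chosen with earlier results of these data known. Genes named outside the members are those called in a pathway list, some of those called in a marker list, Hoxb13, and the nearest by pattern. Same-numbered arrays of both diets deviated together in females (r = 0.28, 0.45, 0.58 and 0.26 over 16836 genes). The same r was 0.01, -0.26, 0.00 and -0.03 for males and 0.33, -0.09, 0.32 and 0.25 after ovariectomy. Replicate numbers may therefore pair the female arrays. The labels state no pairing, and differently numbered arrays were not compared. Some mismatch repair genes are not reported by name. Probe sequences were not used here.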

Additional observations from a re-analysis of the deposited data

Results flagged for a closer look

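In 3 of 78 groups of 4 arrays (13 probes in 6 groups), 1 array stood apart from the other 3. The ratio given is the gap to the nearest array over the range of the group, and chance flags about 1 in 20 groups. Trp53 in M + LFD had a ratio of 0.850, with replicate 2, an array of low Hoxb13, at 7.54 against 7.96 to 8.03. The dimmer Mpg probe A_55_P2109983 in F + LFD had a ratio of 0.867, with replicate 4 at 8.50 against 7.69 to 7.80. The dimmer Msh3 probe A_55_P2600297 in F(OVX) + HFD had a ratio of 0.940, with replicate 1 at 5.83 against 6.29 to 6.32.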

How the results depend on the processing

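The number of the 8 genes called stayed at 0 in each diet comparison under each alternative run. Testing every probe by itself gave 1 in place of 0 for the difference of the diet effect between males and females, for that between males and OVX females, and for males against females over both diets, in each case Msh3 through dimmer probes, calls that rest on single arrays except the first. With 1 array left out the number ranged from 0 to 1 for the difference of the diet effect between OVX females and females, where Mgmt was called without F(OVX) + LFD replicate 1, and stayed at 0 elsewhere. Of 240 member differences under other settings 14 changed sign, and of 192 with 1 array left out 26 did. None of them was called, and the largest size was 0.40. Mgmt in females stayed between 0.29 and 0.40 with 1 array left out. Without the arrays of low Hoxb13, the male differences changed sign to -0.13 for Xrcc1, -0.15 for Parp1, -0.05 for Msh6 and -0.10 for Msh3. With the replicate number as a block, no member was called, while calls over all genes became 960 for males, 586 for females and 555 for OVX females, from 882, 264 and 421. Without the array with the fewest probes above background in F + HFD (replicate 2) and in F(OVX) + LFD (replicate 3), an alternative chosen after seeing the data, no member was called. Dim probes limit Msh3 and Pms2 beyond the brightest probe.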
